A study of Homo sapiens with 16 samples.

Results

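The genes that build ribosomes were followed in the human colon carcinoma line HCT116 after activation of p53, inhibition of histone deacetylases, or both. They are 45 genes whose products transcribe ribosomal RNA with RNA polymerase I or process and assemble it in the nucleolus. They were chosen by name with earlier results of these data known. All 45 were found among the 20612 genes of the deposited expression table. Polyadenylated RNA had been sequenced from p53-/- cells, a derivative of HCT116 without functional p53, and from p53+/+ cells, which keep it. Each genotype was treated for 8 h with the combination of both drugs, with 2.5 µM Entinostat, with 5 µM Nutlin-3A or with the vehicle DMSO, which gave 8 groups of 2 libraries. Entinostat inhibits class I histone deacetylases. Nutlin-3A occupies the p53 pocket of MDM2, the ubiquitin ligase that marks p53 for degradation. The labels do not say whether the p53-/- line is 1 clone, whether replicates were separate cultures, or whether the combination used the doses of the single drugs, so p values measure only the spread between these libraries.

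RNA polymerase I copies the ribosomal DNA repeats into a long precursor, with UBTF and RRN3 at its promoter. Small nucleolar RNAs guide methylation of the precursor in box C/D particles and pseudouridylation in box H/ACA particles. The small subunit processome and a chain of large subunit assembly factors then cut and fold it around ribosomal proteins. MYC binds the E-box CACGTG and is known to activate many of these genes, and p53 is known to repress RNA polymerase I. In proliferating cancer cells of the colon the pathway is usually very active.

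The E-box was the sequence feature searched for in the promoters, because it is the site MYC binds. RefSeq promoters (build GRCh38.p14, 250 bases before to 50 after the annotated start) matched 38 of the 45 genes by symbol. POLR1E, TCOF1, NOP58, RRP12, RRS1, BOP1 and NOLC1 had no entry. CACGTG reads the same on both strands, and no other motif was searched. It stood in 12 of the 38 promoters, or 31.6%, against 10.3% of the 9378 promoters of tested genes with an entry and 7.26% of all 35116 promoters in the table. Its first base lay between 15 bases before and 36 bases after the start in all 12. Of the 2821 matches in all promoters 20% lay from 20 bases before the start onward. That cut lies just outside the 12 positions, so the contrast is only a description. Of the 12, 7 are printed, each as 30 bases on the gene's own strand with the E-box in capitals, 6 from genes that fell with Entinostat in one or both genotypes and, for contrast, NOC3L, which was called in neither.
MYBBP1A, chr17:4555340-4555369, minus strand: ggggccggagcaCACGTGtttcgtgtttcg
MRTO4, chr1:19251807-19251836, plus strand: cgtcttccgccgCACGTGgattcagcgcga
PES1, chr22:30591880-30591909, minus strand: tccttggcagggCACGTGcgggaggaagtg
WDR43, chr2:28894658-28894687, plus strand: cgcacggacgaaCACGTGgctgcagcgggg
NAT10, chr11:34105602-34105631, plus strand: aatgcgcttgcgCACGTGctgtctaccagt
RRP9, chr3:51941892-51941921, minus strand: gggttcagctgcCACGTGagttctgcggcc
NOC3L, chr10:94362903-94362932, minus strand: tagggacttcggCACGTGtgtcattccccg
The 6 bases are shared, and the flanks differ between these genes. A match describes the letters only and shows no binding.

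**Figure D1:**
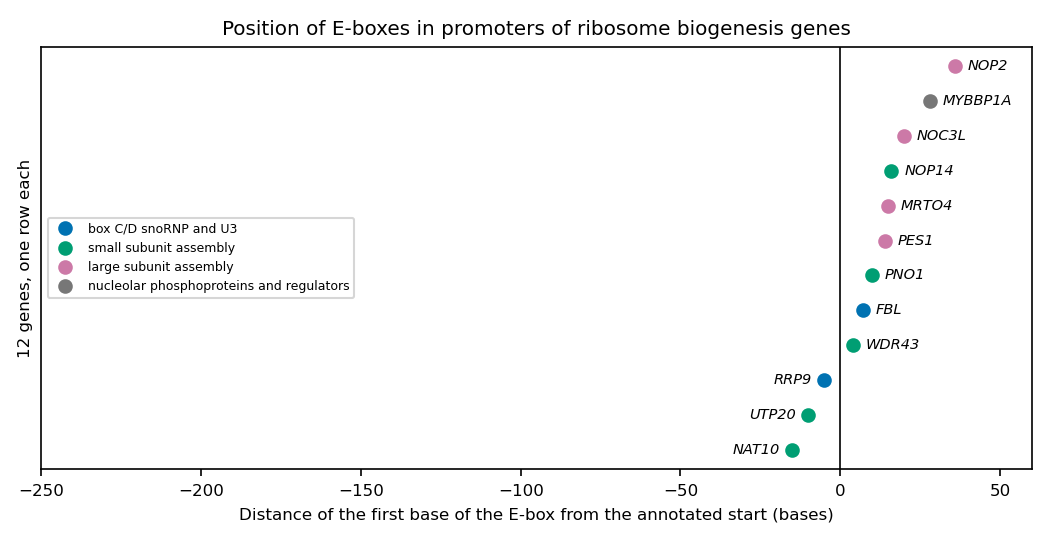
Distance of the first base of CACGTG from the annotated start (x axis, bases) for the 12 genes whose promoter held it, one row each, coloured by role. All 12 points lie from -15 to 36 within a window that reaches from 250 bases before to 50 after the start.

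RPKM are reads scaled to gene length and library size, so levels can be set side by side between genes. Between libraries the comparison is less exact, as the summed RPKM of a library ran from 348800 to 413750. Alignments per library ran from 45902800 to 55507300. The epithelial markers EPCAM, CDH1, KRT8, KRT18, KRT19 and CLDN4 passed the filter on low values and VIL1 did not, with at most 0.0435 RPKM. PTPRC, CD3E, PECAM1, CDH5, COL1A2 and PDGFRB, markers of immune, endothelial and fibroblast cells, stayed at or below 0.134 RPKM. CD68 (3.40 to 7.33 RPKM) and COL1A1 (2.00 to 5.80 RPKM) were the other 2 of those 8.

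All 45 genes passed the filter of a mean of at least 0.5 RPKM, as did 12466 genes or 60.5% of the table. Their median level was 35.2 RPKM, against 7.81 RPKM over all tested genes. NPM1, a nucleolar chaperone, was the most abundant at a mean of 1395 RPKM over the 16 libraries, and UTP20, a large processome scaffold, the least at 7.38 RPKM. Together the 45 held 0.828% to 1.36% of the summed RPKM of a library.

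Entinostat was followed by a broad fall in these genes in both genotypes. Of the 45 genes 26 fell and 0 rose in p53-/- cells, where 13.3% of all tested genes fell and 15% rose. In p53+/+ cells 27 fell and 0 rose, where 12.4% of all tested genes fell and 15.1% rose. A gene was called at a Benjamini-Hochberg adjusted p under 0.05 in limma's moderated test on log2(RPKM + 0.5), fitted across all tested genes and all 16 libraries, and errors of log2 changes are standard errors. The median log2 change of the 45 was -0.46 in p53-/- and -0.48 in p53+/+ cells, against 0.02 and 0.01 over all tested genes. Of the 45, 22 fell in both genotypes, a count with no share over all tested genes beside it. The Entinostat changes in p53-/- and p53+/+ cells correlated with r = 0.91 over all tested genes, so this count alone does not set the 45 apart. In these bulk libraries fewer cells with a transcript and less transcript per cell cannot be told apart, and RPKM give a share of the library's RNA and not an amount per cell. The summed RPKM of the 8 immune, endothelial and fibroblast markers was 10.4 and 10.9 in p53-/- Entinostat libraries, against 6.45 and 7.51 with DMSO, and 10.1 and 10.3 in p53+/+ Entinostat libraries, against 6.05 and 7.39. It was 10.7 and 11.2 in p53-/- and 11.6 and 13.3 in p53+/+ combination libraries, and 5.45 to 6.65 in the 4 Nutlin-3A libraries. CD68 and COL1A1 made up nearly all of these sums. The summed RPKM of the 7 epithelial markers was also higher with Entinostat than with DMSO. It was 2390 and 2721, against 2098 and 2253, in p53-/- and 2855 and 2927, against 2132 and 2323, in p53+/+ libraries. With the combination it was 2362 and 2733 in p53-/- and 4124 and 4790 in p53+/+ libraries, and with Nutlin-3A 1741 and 2162 in p53-/- and 2765 and 2882 in p53+/+ libraries. With Entinostat COL1A1 rose in p53-/- (0.69) and p53+/+ cells (0.79) and CD68 in p53-/- cells (0.47), while PTPRC, CD3E, PECAM1, CDH5 and COL1A2 stayed at or near 0 in every library.

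**Figure D2:**
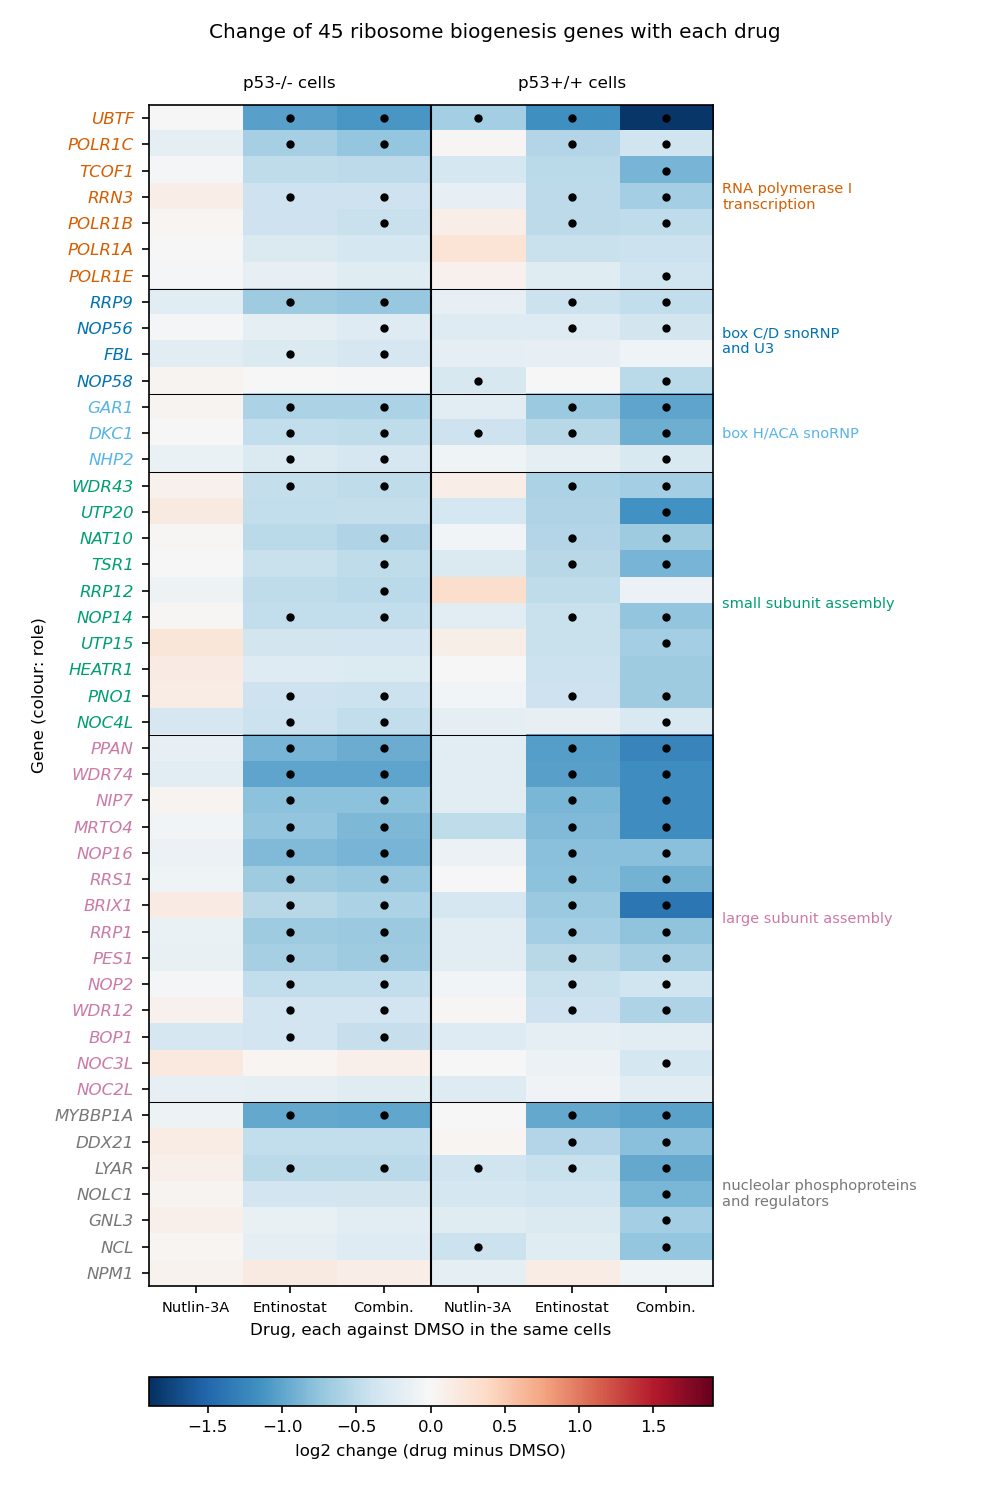
Log2 change of the 45 genes (rows, grouped and coloured by role) with each drug against DMSO in the same cells (columns, p53-/- left and p53+/+ right; Combin. is the combination), with a dot where the change was called. The p53-/- Nutlin-3A column has no dot, and the p53+/+ combination column has 38.

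Among the 7 genes of RNA polymerase I transcription, UBTF fell most. UBTF, the architectural factor that holds ribosomal DNA open, had 12.8 and 15.4 RPKM in p53-/- Entinostat libraries, against 28.7 and 29.6 RPKM in p53-/- DMSO libraries (log2 change -1.03 ± 0.13, adjusted p = 0.000725). UBTF had 12.8 and 15.2 RPKM in p53+/+ Entinostat libraries, against 31.1 and 32.4 RPKM with DMSO (log2 change -1.16 ± 0.13, adjusted p = 0.00057). Every Entinostat library lay below every DMSO library. POLR1C, a subunit that RNA polymerase I shares with RNA polymerase III, fell in p53-/- (-0.63) and p53+/+ cells (-0.56), as did RRN3, which recruits the polymerase to its promoter (-0.39 and -0.50). The second largest subunit, POLR1B, fell in p53+/+ cells (-0.50) and was not called in p53-/- cells (-0.39). The largest subunit, POLR1A, the subunit POLR1E and the nucleolar cofactor TCOF1 were called in neither genotype.

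Of the 14 large subunit assembly factors 12 fell in p53-/- and 11 in p53+/+ cells. WDR74, which helps mature the large subunit precursor, had 30.3 and 39.3 RPKM in p53-/- Entinostat libraries, against 70.2 and 69.02 RPKM with DMSO (log2 change -1.002 ± 0.17, adjusted p = 0.00232). WDR74 had 25.2 and 31.3 RPKM in p53+/+ Entinostat libraries, against 56.9 and 59.1 RPKM with DMSO (log2 change -1.03 ± 0.17, adjusted p = 0.00207). Its Entinostat and DMSO libraries did not overlap in either genotype. PPAN, a Brix domain protein of large subunit assembly, had 15.5 and 18.6 RPKM in p53-/- Entinostat libraries, against 29.2 and 34.9 RPKM with DMSO (log2 change -0.89 ± 0.15, adjusted p = 0.00223). In p53+/+ cells PPAN had 14.2 and 15.9 RPKM, against 30.5 and 32.4 RPKM (log2 change -1.04 ± 0.15, adjusted p = 0.00124). P2RY11 and a PPAN-P2RY11 readthrough have rows of their own in the table, so the split of reads between them and PPAN is uncertain. NIP7 (-0.78 in p53-/- and -0.87 in p53+/+ cells), NOP16 (-0.84 and -0.79), MRTO4 (-0.75 and -0.84) and RRS1 (-0.67 and -0.77) also fell in both. In the PeBoW complex, which PES1, BOP1 and WDR12 form, PES1 (-0.63 and -0.53) and WDR12 (-0.37 and -0.39) fell in both genotypes. BOP1 fell in p53-/- cells (-0.37) and was not called in p53+/+ cells (-0.18).

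Of the 10 small subunit factors 4 fell in p53-/- and 5 in p53+/+ cells. WDR43, a processome protein, had 35.3 and 41.8 RPKM in p53-/- Entinostat libraries, against 51.1 and 54.1 RPKM with DMSO (log2 change -0.45 ± 0.13, adjusted p = 0.0254), and 30.9 and 36.9 RPKM in p53+/+ Entinostat libraries, against 50.5 and 52.9 RPKM (log2 change -0.61 ± 0.13, adjusted p = 0.00675). The groups did not overlap in either genotype. NOP14 and PNO1, which binds the nearly mature small subunit, also fell in both. HEATR1, UTP15, UTP20 and RRP12 were called in neither, with log2 changes from -0.57 to -0.24 over both genotypes and a standard error of 0.34 for UTP20, the gene with the lowest level.

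All 3 genes of the box H/ACA particle fell in p53-/- cells and 2 in p53+/+ cells. DKC1, the pseudouridine synthase, had 30.02 and 33.96 RPKM in p53-/- Entinostat libraries, against 44.9 and 43.5 RPKM with DMSO (log2 change -0.46 ± 0.11, adjusted p = 0.00933). DKC1 had 27.3 and 29.5 RPKM in p53+/+ Entinostat libraries, against 42.02 and 40.2 RPKM (log2 change -0.53 ± 0.11, adjusted p = 0.00544). GAR1, a structural protein of the particle, fell in p53-/- (-0.60) and p53+/+ cells (-0.70), and NHP2, another, fell in p53-/- cells (-0.28) and was not called in p53+/+ cells (-0.19). Of the 4 box C/D and U3 genes 2 fell in each genotype. RRP9, a protein of the U3 particle, fell in both, with 37.9 and 48.2 RPKM in p53-/- Entinostat libraries, against 65.7 and 72.2 RPKM with DMSO (log2 change -0.68 ± 0.13, adjusted p = 0.00417), and a change of -0.41 in p53+/+ cells. FBL, the methyltransferase, fell in p53-/- cells (-0.27) and was not called in p53+/+ cells (-0.16). NOP56, a core protein of the particle, fell in p53+/+ cells (-0.24) and was not called in p53-/- cells (-0.19). NOP58, its partner in the core, had 99.6 and 90.8 RPKM in p53-/- Entinostat libraries, against 100.3 and 90.5 RPKM with DMSO, and 98.9 and 90.7 RPKM in p53+/+ Entinostat libraries, against 94.7 and 95.3 RPKM. Its groups overlapped in both genotypes.

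The 7 nucleolar phosphoproteins and regulators ranged from a steep fall to small positive changes that were not called. MYBBP1A, a nucleolar MYB-binding protein, had 14.6 and 19.8 RPKM in p53-/- Entinostat libraries, against 31.7 and 35.9 RPKM with DMSO (log2 change -0.97 ± 0.18, adjusted p = 0.00314). MYBBP1A had 15.9 and 19.5 RPKM in p53+/+ Entinostat libraries, against 34.9 and 35.2 RPKM (log2 change -0.97 ± 0.18, adjusted p = 0.00318). The 2 genotypes thus gave the same log2 change to the second decimal. NPM1 had 1607 and 1468 RPKM in p53-/- Entinostat libraries, against 1434 and 1292 RPKM with DMSO, and 1519 and 1468 RPKM in p53+/+ Entinostat libraries, against 1319 and 1400.3 RPKM. Both changes were positive (0.17 and 0.14) and neither was called. NPM1 has 45 annotated pseudogenes, which could share its reads.

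**Figure D3:**
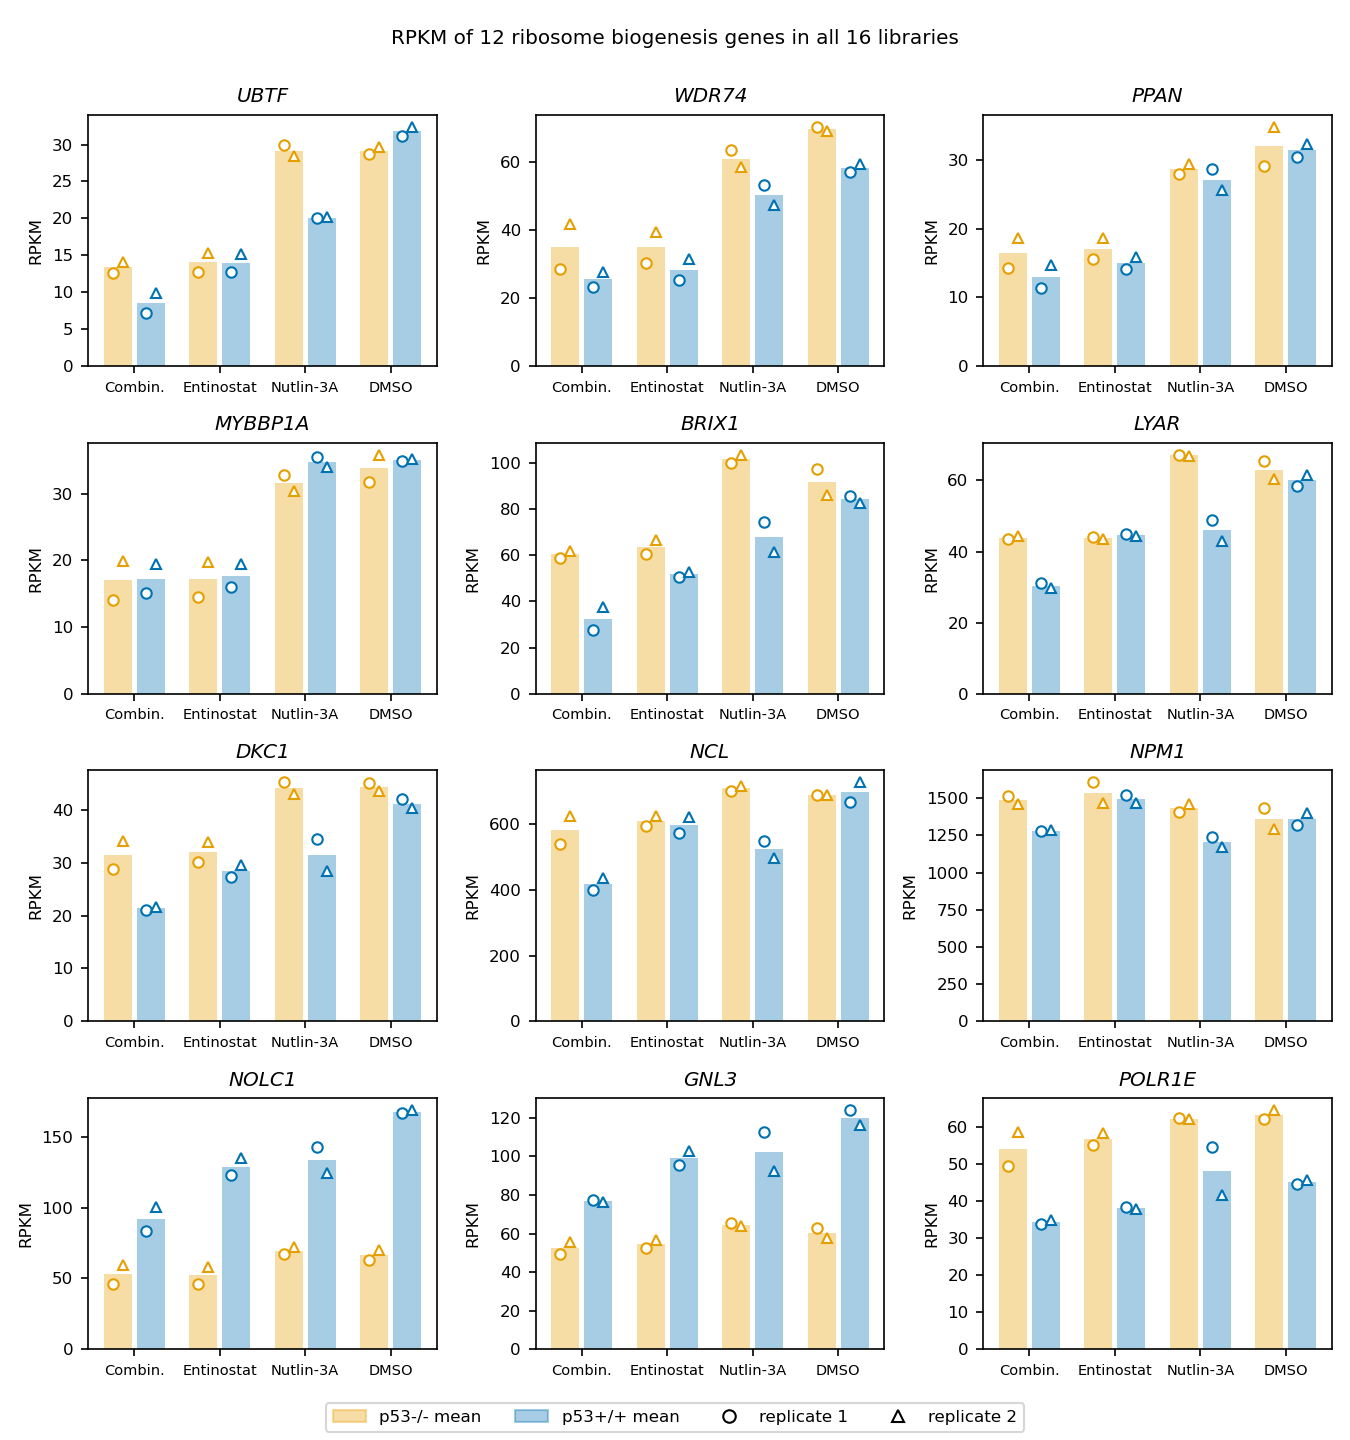
RPKM of 12 of the genes in all 16 libraries on linear axes from 0, by treatment (Combin. is the combination), with p53-/- in orange left of p53+/+ in blue, bars for the mean of 2 libraries, circles for replicate 1 and triangles for replicate 2. UBTF is lowest in the p53+/+ combination libraries, at 7.24 and 9.85 RPKM, and NOLC1 and GNL3 are lower in p53-/- than in p53+/+ libraries under every treatment.

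Replicate 1 gave lower values than replicate 2 for most of these genes with Entinostat, with the combination and with DMSO. With Entinostat this held for 41 of the 45 genes in p53-/- and 39 in p53+/+ cells. It held for 43 in p53-/- and 35 in p53+/+ cells with the combination, and for 34 and 36 with DMSO. With Nutlin-3A the counts were 23 in p53-/- and 8 in p53+/+ cells. The median log2 difference of replicate 1 minus replicate 2 ran from -0.24 to -0.17 in the 4 Entinostat and combination groups. It was -0.09 in the p53-/- and -0.07 in the p53+/+ DMSO group. With quantile normalization of the libraries 16 of the 45 genes fell with Entinostat in p53-/- and 17 in p53+/+ cells. The count of falls with Entinostat in p53-/- cells was 8 without Entinostat replicate 1, 11 without DMSO replicate 2 and 17 without DMSO replicate 1. In p53+/+ cells it was 9 without Entinostat replicate 1 and 11 without DMSO replicate 2. Calls over all tested genes, both directions together, numbered 838 in p53-/- and 779 in p53+/+ cells without Entinostat replicate 1, against 3520 and 3434 with all libraries. POLR1C, UBTF, PPAN, NOP16, WDR74, RRP1, MYBBP1A and LYAR kept their calls with each of the 16 libraries left out in turn in both genotypes, and BRIX1 did so in p53+/+ cells. The other calls with Entinostat were lost in 1 or more of these fits.

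More of the 45 were called lower with the combination than with Entinostat, above all in p53+/+ cells. There the share of all tested genes called lower was also larger, at 26.8% against 12.4%. In p53-/- cells no gene of the 45 was called between the combination and Entinostat. Of the 45 genes 31 fell in p53-/- cells, against 14.7% of all tested genes, and 38 fell in p53+/+ cells, against 26.8%. None rose, against 17.1% of all tested genes in p53-/- and 23.2% in p53+/+ cells. The median log2 change was -0.47 in p53-/- and -0.67 in p53+/+ cells, against 0.03 and -0.03 over all tested genes. All 45 log2 changes were negative in p53+/+ cells. With quantile normalization the p53-/- count was 19. Without combination replicate 1 it was 9, and without DMSO replicate 2 it was 15. With 1 library left out at a time the p53+/+ count ran from 30 to 39.

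UBTF again had the largest change. It had 12.6 and 14.1 RPKM in p53-/- combination libraries, against 28.7 and 29.6 RPKM with DMSO (log2 change -1.10 ± 0.13, adjusted p = 0.000445). In p53+/+ cells it had 7.24 and 9.85 RPKM, against 31.1 and 32.4 RPKM (log2 change -1.85 ± 0.13, adjusted p = 6.13e-06), which is 73.1% lower in mean RPKM. BRIX1, another Brix domain protein of large subunit assembly, had 58.998 and 61.9 RPKM in p53-/- combination libraries, against 97.5 and 85.95 RPKM with DMSO (log2 change -0.60 ± 0.14, adjusted p = 0.00701). In p53+/+ cells BRIX1 had 27.4 and 37.8 RPKM, against 85.9 and 82.7 RPKM (log2 change -1.37 ± 0.14, adjusted p = 3.18e-05). No combination library of either gene reached a DMSO library of its genotype. The p53-/- call of BRIX1 was lost without DMSO replicate 1 or combination replicate 1, at adjusted p of 0.0558 and 0.0633.

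WDR74, PPAN and MYBBP1A also stood among the 4 largest falls of a genotype. WDR74 had 28.4 and 41.6 RPKM in p53-/- combination libraries (log2 change -1.01 ± 0.17, adjusted p = 0.00188) and 23.2 and 27.6 RPKM in p53+/+ combination libraries (log2 change -1.18 ± 0.17, adjusted p = 0.000262). PPAN had 14.2 and 18.7 RPKM in p53-/- (log2 change -0.95 ± 0.15, adjusted p = 0.00139) and 11.4 and 14.7 RPKM in p53+/+ combination libraries (log2 change -1.25 ± 0.15, adjusted p = 9.43e-05). MYBBP1A had 14.1 and 19.99 RPKM in p53-/- (log2 change -0.98 ± 0.18, adjusted p = 0.00244) and 15.1 and 19.4 RPKM in p53+/+ combination libraries (log2 change -1.01 ± 0.18, adjusted p = 0.000789). NIP7 and MRTO4 each fell by 1.18 on the log2 scale in p53+/+ cells.

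By role, 12 of 14 large subunit factors fell with the combination in each genotype. Of 10 small subunit factors 7 fell in p53-/- and 8 in p53+/+ cells, and of 7 RNA polymerase I genes 4 fell in p53-/- and 6 in p53+/+ cells. Of the 4 box C/D and U3 genes 3 fell in each genotype, and all 3 box H/ACA genes fell in both. The widest gap in count lay in the 7 phosphoproteins and regulators, with 2 falls in p53-/- cells, MYBBP1A and LYAR, and 6 in p53+/+ cells. NCL, a ribosomal RNA chaperone, had 539 and 623 RPKM in p53-/- combination libraries, against 686 and 689 RPKM with DMSO, which was not called (-0.25, adjusted p = 0.0814). In p53+/+ cells NCL had 398 and 436 RPKM, against 666 and 726 RPKM (log2 change -0.74 ± 0.10, adjusted p = 0.000179). A call in one genotype and not in the other is not a test of their difference, which is given further on. POLR1A, HEATR1, NOC2L and NPM1 were not called lower with any drug in either genotype. Their log2 changes with the combination in p53+/+ cells were still negative, from -0.67 for HEATR1 to -0.08 for NPM1.

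Few of these genes were called with Nutlin-3A alone. None was called in p53-/- cells, where limma called 0.00% of all tested genes at the adjusted threshold. In limma's test 3 of the 45 had an unadjusted p under 0.05, a count with no share over all tested genes beside it. In p53+/+ cells 5 fell, against 9.50% of all tested genes, and 0 rose, against 7.89%, so the share of the 45 that fell, 11.1%, was near the background. The median log2 change of the 45 was -0.19 in p53+/+ cells, against -0.02 over all tested genes. In 27 of the 45 both Nutlin-3A libraries lay below both DMSO libraries in p53+/+ cells, against 34.5% of all tested genes, and in 12 in p53-/- cells, against 16.5%. UBTF had 19.999 and 20.2 RPKM in p53+/+ Nutlin-3A libraries, against 31.1 and 32.4 RPKM with DMSO (log2 change -0.65 ± 0.13, adjusted p = 0.00567). NCL had 549 and 496 RPKM, against 666 and 726 RPKM (log2 change -0.41 ± 0.10, adjusted p = 0.0139). DKC1 had 34.5 and 28.4 RPKM, against 42.02 and 40.2 RPKM (log2 change -0.39 ± 0.11, adjusted p = 0.0279). These 3 pairs of groups did not overlap. LYAR, a nucleolar zinc finger protein, had 48.98 and 43.04 RPKM, against 58.5 and 61.5 RPKM (log2 change -0.38 ± 0.08, adjusted p = 0.00564), and NOP58 fell by 0.30 on the log2 scale. In p53-/- cells the same 5 genes had log2 changes from -0.01 to 0.09 with Nutlin-3A, none called. RRP12 (0.33) and POLR1A (0.26) had the largest positive changes in p53+/+ cells and were not called.

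Each of these 5 calls depended on single libraries. Without p53+/+ DMSO replicate 2 none of the 45 was called, without DMSO replicate 1 the count was 3, and without Nutlin-3A replicate 2 it was 1. UBTF was lost only without DMSO replicate 2, at an adjusted p of 0.0512. The adjusted p of the lost calls ran from 0.0509 to 0.247.

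Adding Nutlin-3A to Entinostat was compared with Entinostat alone. In p53-/- cells 0 of the 45 genes were called, limma called 0.00% of all tested genes, and 0 of the 45 had an unadjusted p under 0.05. In p53+/+ cells 8 were lower in the combination than with Entinostat and 0 were higher, against 9.69% of all tested genes lower and 5.16% higher. They were UBTF (-0.69), BRIX1 (-0.68), LYAR (-0.55), NCL (-0.52), NOP58 (-0.51), NOLC1 (-0.49), DKC1 (-0.40) and GNL3 (-0.36). The 5 genes that fell with Nutlin-3A alone in p53+/+ cells are all among these 8. The 2 comparisons share no library, but both took the same error for each gene from the one fit, so their calls are not independent. LYAR had 31.1 and 29.7 RPKM in p53+/+ combination libraries, against 44.97 and 44.3 RPKM with Entinostat. NOP58 had 63.8 and 69.5 RPKM in the combination, against 98.9 and 90.7 RPKM with Entinostat. Neither pair overlapped, and these 2 calls kept with each library left out in turn. The count was 2 without Entinostat replicate 2 or combination replicate 1 and 5 without Entinostat replicate 1, and it was 0 where only these groups were fitted.

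Entinostat added to Nutlin-3A gave larger changes. Against Nutlin-3A alone, 27 of the 45 genes were lower in the p53-/- combination, against 9.75% of all tested genes, and 31 in the p53+/+ combination, against 18.1%. None was higher, against 13.6% of all tested genes in p53-/- and 16.6% in p53+/+ cells. UBTF was lowest in both, at -1.10 in p53-/- and -1.20 in p53+/+ cells. The p53-/- count was 5 without combination replicate 1, 14 without Nutlin-3A replicate 1 and 15 without Nutlin-3A replicate 2. The p53+/+ count was 16 without combination replicate 1 and 17 without Nutlin-3A replicate 1.

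The combined change was also compared with the sum of the 2 single changes on the log2 scale. No gene of the 45 departed from that sum in either genotype, limma called 0.00% of all tested genes, and 0 of the 45 had an unadjusted p under 0.05. The departures ran from -0.25 to 0.27 in p53-/- and from -0.36 to 0.25 in p53+/+ cells. BRIX1 in p53+/+ cells had the most negative, -0.36 with a 95% interval of -0.78 to 0.06, so that neither additivity nor a sizeable departure was shown.

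The genotypes were compared within each treatment. With DMSO 1 of the 45 genes was higher in p53-/- cells, against 1.56% of all tested genes, and 2 were lower, against 3.13%. NOLC1, a phosphoprotein that binds snoRNA particles, had 63.3 and 70.02 RPKM in p53-/- DMSO libraries, against 167 and 169 RPKM in p53+/+ DMSO libraries (log2 change -1.33 ± 0.14, adjusted p = 0.000201). GNL3, or nucleostemin, a nucleolar GTPase, had 62.8 and 57.6 RPKM in p53-/-, against 124 and 116 RPKM in p53+/+ DMSO libraries (log2 change -0.99 ± 0.10, adjusted p = 0.00012). POLR1E had 62.2 and 64.7 RPKM in p53-/-, against 44.6 and 45.6 RPKM in p53+/+ DMSO libraries (log2 change 0.49 ± 0.11, adjusted p = 0.028). None of the 3 overlapped between genotypes.

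The same 3 genes differed in the same direction under every treatment. NOLC1 had 66.97 and 71.9 RPKM in p53-/-, against 143 and 124 RPKM in p53+/+ Nutlin-3A libraries (-0.94). It had 45.96 and 58.2 RPKM, against 123 and 135 RPKM, with Entinostat (-1.31) and 46.1 and 59.7 RPKM, against 83.7 and 101 RPKM, with the combination (-0.80). For GNL3 the log2 differences of p53-/- minus p53+/+ cells were -0.65 with Nutlin-3A, -0.85 with Entinostat and -0.55 with the combination. For POLR1E they were 0.38, 0.56 and 0.64. The calls of NOLC1 and GNL3 held with each library left out, while those of POLR1E were lost in some of these fits with DMSO (adjusted p 0.106 to 0.192), Nutlin-3A (0.075 to 0.222) and Entinostat (0.0627 to 0.144). With Entinostat these 3 were the only ones of the 45 called, POLR1E against 1.36% of all tested genes in its direction and the other 2 against 2.40%.

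With Nutlin-3A 12 of the 45, or 26.7%, were higher in p53-/- cells, against 17.5% of all tested genes, and 2 were lower, against 16.9%. With the combination 14, or 31.1%, were higher, against 20.5%, and 2 lower, against 15.9%. BRIX1 had 100.1 and 104 RPKM in p53-/-, against 74.5 and 61.4 RPKM in p53+/+ Nutlin-3A libraries (log2 change 0.59 ± 0.14, adjusted p = 0.00545). MRTO4, which resembles the stalk protein it holds the place of, had 63.9 and 63.3 RPKM in p53-/-, against 42.1 and 42.2 RPKM in p53+/+ Nutlin-3A libraries (log2 change 0.59 ± 0.18, adjusted p = 0.0228). LYAR had 67.3 and 66.8 RPKM in p53-/-, against 48.98 and 43.04 RPKM in p53+/+ Nutlin-3A libraries (log2 change 0.54 ± 0.08, adjusted p = 0.000301). UBTF had 29.9 and 28.4 RPKM in p53-/-, against 19.999 and 20.2 RPKM in p53+/+ Nutlin-3A libraries (log2 change 0.53 ± 0.13, adjusted p = 0.0102). None of the 4 genes overlapped between genotypes. BRIX1 missed the threshold without replicate 2 of the p53+/+ Nutlin-3A group (adjusted p = 0.0598), that of UBTF without replicate 1 of either genotype (0.0532 and 0.0539), and that of MRTO4 without any 1 of the 4 Nutlin-3A libraries (0.0780 to 0.0906).

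With the combination BRIX1 had 58.998 and 61.9 RPKM in p53-/-, against 27.4 and 37.8 RPKM in p53+/+ libraries (log2 change 0.90 ± 0.14, adjusted p = 0.000496). NIP7, a large subunit factor, had 18.9 and 27.8 RPKM in p53-/-, against 11.6 and 16.8 RPKM in p53+/+ combination libraries (log2 change 0.70 ± 0.21, adjusted p = 0.0228), a call lost without p53+/+ replicate 1 or p53-/- replicate 2 (adjusted p = 0.216 and 0.211). POLR1E had 49.5 and 58.6 RPKM in p53-/-, against 33.98 and 34.9 RPKM in p53+/+ combination libraries. GAR1 had 23.3 and 26.2 RPKM in p53-/-, against 13.6 and 18.3 RPKM in p53+/+ combination libraries (log2 change 0.63 ± 0.15, adjusted p = 0.00579), lost without the same 2 libraries (0.0693 and 0.0511). In all 4 genes the genotypes did not overlap. Under both treatments UBTF, BRIX1, LYAR, NCL, DKC1 and NOP58 were among the genes higher in p53-/- cells. The Nutlin-3A count of 14 was 4 without p53+/+ Nutlin-3A replicate 2 and 8 without either p53-/- Nutlin-3A library. The combination count of 16 was 9 without p53+/+ combination replicate 1, 10 without p53-/- combination replicate 2 and 7 where only these groups were fitted.

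**Figure D4:**
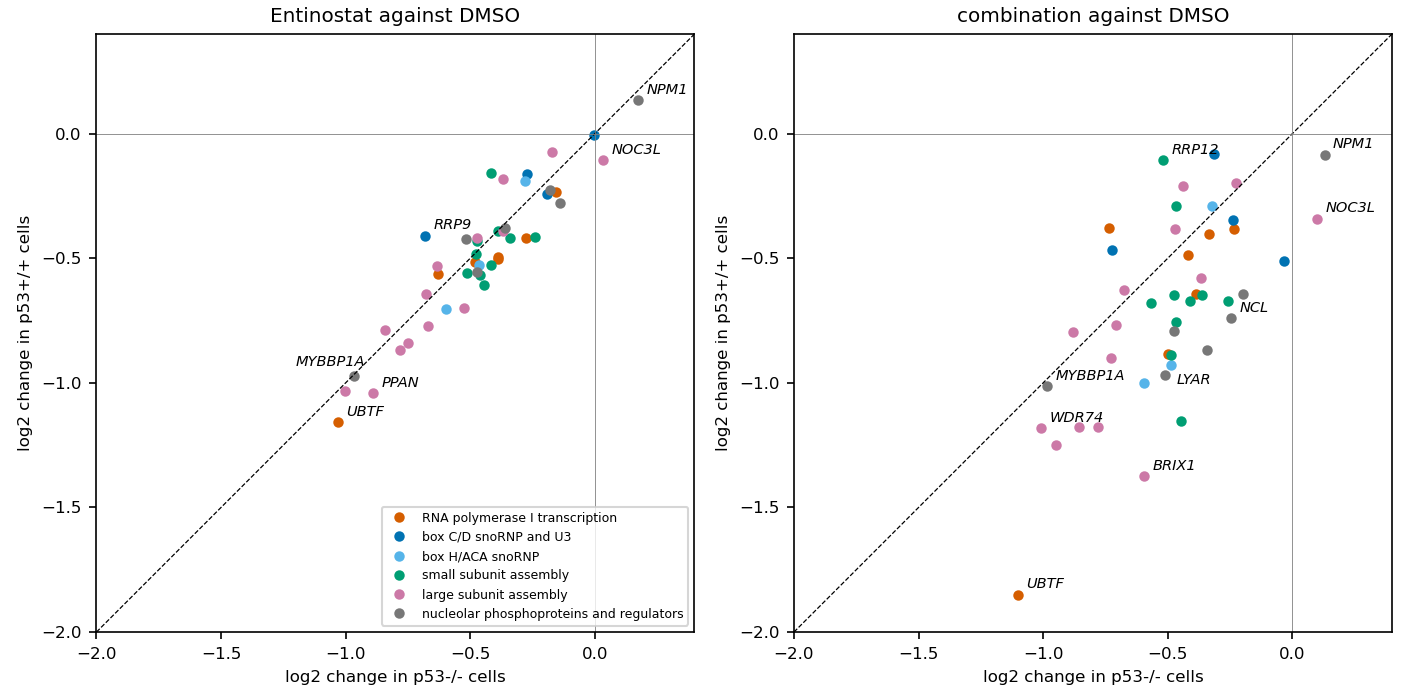
Log2 change in p53-/- cells (x axis) against log2 change in p53+/+ cells (y axis) of the 45 genes with Entinostat (left) and with the combination (right), each against DMSO, coloured by role, with the line of equal change dashed. With Entinostat the points lie along the line, and with the combination UBTF and BRIX1 lie furthest below it.

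Whether the responses themselves differed was tested as the p53-/- minus the p53+/+ change. With Entinostat 0 of the 45 differed, limma called 0.00% of all tested genes, and 0 of the 45 had an unadjusted p under 0.05. The differences ran from -0.27 to 0.17. As a description across genes that share libraries within a genotype, the changes in the 2 genotypes correlated with r = 0.93 over the 45 genes and r = 0.91 over all tested genes. With the combination r was 0.66 over the 45 and 0.72 over all tested genes.

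With Nutlin-3A 1 of the 45 responses differed, against 6.78% of all tested genes. LYAR had 67.3 and 66.8 RPKM in p53-/- Nutlin-3A libraries, against 65.4 and 60.3 RPKM with DMSO, a change of 0.09, and a change of -0.38 in p53+/+ cells, a difference of 0.48 ± 0.11 (adjusted p = 0.0259). With the combination 3 differed, against 5.78%. UBTF changed by -1.10 in p53-/- and -1.85 in p53+/+ cells (difference 0.75 ± 0.19, adjusted p = 0.042). BRIX1 changed by -0.60 and -1.37 in those cells (difference 0.78 ± 0.19, adjusted p = 0.0366), and LYAR by -0.51 and -0.97 (difference 0.46 ± 0.11, adjusted p = 0.0366). These are 2.22% of the 45 with Nutlin-3A and 6.67% with the combination, neither far above the background. Each of the 4 calls was lost when single libraries were left out, at adjusted p from 0.0518 to 0.155.

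In p53+/+ cells MYC fell with Entinostat and was not called with the combination. MYC had 60.4 and 78.3 RPKM in p53-/- Entinostat libraries, against 111 and 128 RPKM with DMSO (log2 change -0.79 ± 0.15, adjusted p = 0.00346), and 60.6 and 81.5 RPKM with the combination (-0.76). In p53+/+ cells it had 106 and 105 RPKM with Entinostat, against 150.4 and 162 RPKM with DMSO (log2 change -0.56 ± 0.15, adjusted p = 0.0169). With Nutlin-3A in p53+/+ cells MYC was higher, at 234 and 205 RPKM (log2 change 0.49 ± 0.15, adjusted p = 0.041). With the combination in p53+/+ cells, where most of the 45 fell, it had 194 and 174 RPKM and was not called (0.24, adjusted p = 0.205). MYC protein was not measured, and its part in these changes was not tested. CDKN1A, a p53 target, rose with Nutlin-3A in p53+/+ cells (3.54) and with Entinostat in p53-/- cells (1.85).

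Falls were found among promoters with and without the E-box. With Entinostat 9 of the 12 genes with an E-box, such as MYBBP1A, MRTO4 and PES1, and 15 of the 26 without fell in p53-/- cells. In p53+/+ cells 9 of 12 with and 17 of 26 without fell. The median log2 changes were -0.47 with and -0.42 without the E-box in p53-/- cells and -0.48 and -0.50 in p53+/+ cells. Among the 4 steepest falls in each genotype, MYBBP1A had CACGTG in the window and UBTF, PPAN and WDR74 had none. NOC3L had one without a called change with Entinostat. No letters were compared beyond this window.

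Another shared feature was the position of snoRNA genes, many of which lie inside genes of the pathway and are cut from introns. In the GENCODE v29 annotation (GRCh38) 9 of the 45 genes, or 20%, held a snoRNA gene on the same strand, against 1.85% of the 11390 tested protein-coding genes. They were POLR1C, NOP56, NOP58, DKC1, WDR43, TSR1, PPAN, NCL and GNL3. With the combination 6 of the 9 fell in p53-/- cells, where 31 of the 45 did, and all 9 in p53+/+ cells, where 38 of the 45 did. With Entinostat 4 fell in p53-/- and 6 in p53+/+ cells. NOP58, NCL and GNL3 were the 3 not called with the combination in p53-/- cells or with Entinostat in p53+/+ cells. NOP56, for example, holds 5, among them SNORD56, and had 139 and 140.2 RPKM in p53+/+ combination libraries, against 172 and 184 RPKM with DMSO (log2 change -0.35 ± 0.08, adjusted p = 0.00488). SNORD56 and SNORA36A, which lies inside DKC1, have rows of their own in the expression table, and it is not stated how reads in them were assigned.

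Other genes of the pathway, also listed with earlier results of these data known, were set beside the 45. Of 125 further factors for RNA polymerase I and both subunits, 41 fell and 2 rose with Entinostat in p53-/- cells, and 37 fell and 1 rose in p53+/+ cells. With the combination 48 fell and 2 rose in p53-/- cells, and 84 fell and 2 rose in p53+/+ cells. Of all tested genes 13.3% fell with Entinostat in p53-/- and 12.4% in p53+/+ cells, and 14.7% and 26.8% with the combination. The shares that rose were 15% and 15.1% with Entinostat and 17.1% and 23.2% with the combination. In p53+/+ cells with Entinostat 20 of 60 small subunit and snoRNP genes fell, led by IMP4 (-0.75), EMG1 (-0.72) and BYSL (-0.70). Of 49 large subunit genes 15 fell, among them DDX51 (-0.80) and NLE1 (-0.71), and EFL1, which releases a late assembly factor, rose (0.66). Of 16 other RNA polymerase I genes 2 fell, ZNRD1 (-0.73) and CD3EAP (-0.54), both subunits of the enzyme. That count is near the share of 12.4% over all tested genes.

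The RNA exosome, which trims precursor RNA, gave 4 falls of 14 genes with Entinostat in p53-/- and 6 in p53+/+ cells, with EXOSC4 at -0.71 and -0.58. Of 11 RNA polymerase III subunits 4 fell in each genotype, with POLR3E at -0.66 and -0.69. Of 7 RNA polymerase II subunits 1 fell in p53-/- and 0 in p53+/+ cells. Among all tested genes 13.3% fell with Entinostat in p53-/- and 12.4% in p53+/+ cells. None of 30 cytosolic ribosomal protein genes was called with Entinostat in either genotype (median log2 change -0.10 in p53-/- and -0.02 in p53+/+ cells). With the combination 8 of the 30 rose in p53+/+ cells, among them RPL3 (0.61), near the 23.2% of all tested genes that rose. In p53-/- cells 0 of the 30 were called. None of these 30 ribosomal protein genes was thus called lower in the 4 comparisons in which 26 to 38 of the 45 assembly genes fell.

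**Figure D5:**
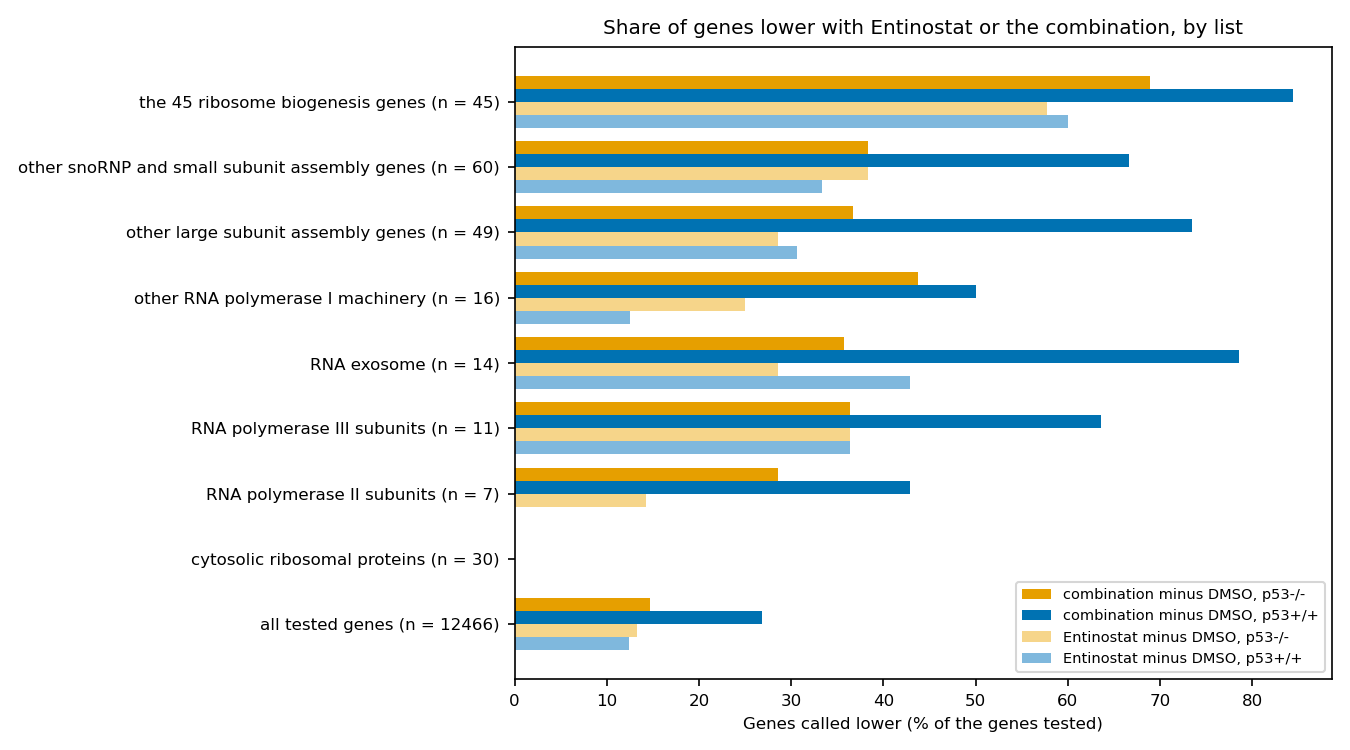
Share of the tested genes of each list that fell (x axis, percent) with the combination (dark bars) and with Entinostat (light bars) in p53-/- (orange) and p53+/+ cells (blue), with all 12466 tested genes at the bottom. The 45 genes have the longest bar of each kind, the 30 cytosolic ribosomal proteins have none, and other assembly lists lie between. The 45 and the other lists were chosen with earlier results of these data known, so the bars are descriptions.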

How the data were processed

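Polyadenylated RNA of 16 HCT116 libraries was sequenced, with 2 libraries in each of 8 groups taken from the sample labels. The deposited values are RPKM per gene. Bowtie2, Partek and the build hg19 are named per the submitters' processing notes, and their versions, the gene models and the use of strand in counting are not stated in these sources. RPKM carry no read counts, so no counting intervals are given.

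Values were analysed as log2(RPKM + 0.5), which understates changes of low genes, in 12466 of 20612 genes with a mean of at least 0.5 RPKM. One limma fit (version 3.58.1, R 4.3.3) of the 8 group means, with an intensity trend, 8 residual and 4.09 prior degrees of freedom, served 19 comparisons. P values were adjusted by Benjamini and Hochberg within each comparison over all 12466 genes and called under 0.05. The fit was tested on simulated data. The 45 genes and all gene lists were chosen with earlier results of these data known, so their counts are descriptions. Library values are given for the 4 called genes of the 45 with the largest change in each direction, for at least 1 gene of each role, and for called differences in response. Promoters are from RefSeq (GRCh38.p14), and their coordinates are independent of the hg19 values. Alternatives were another pseudocount, no low-value filter, 2 other scalings, no trend, a replicate block, the compared groups alone, and each library left out in turn. A few genes of the lists are not reported here.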

Additional observations from a re-analysis of the deposited data

Results flagged for a closer look

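Among the 45 genes, 4 responses differed between genotypes by the interaction test of limma's fit, with Benjamini-Hochberg adjustment over all tested genes. That is 2.22% of the 45 with Nutlin-3A, against 6.78% of all tested genes, and 6.67% with the combination, against 5.78%. Neither share is far above the background. The Nutlin-3A response of LYAR was higher in p53-/- than in p53+/+ cells by 0.48 on the log2 scale (adjusted p = 0.0259). The combination response was higher in p53-/- than in p53+/+ cells by 0.75 for UBTF, by 0.78 for BRIX1 and by 0.46 for LYAR. Without single libraries the LYAR call with Nutlin-3A was lost at adjusted p from 0.0567 to 0.113, and the combination calls at 0.0518 to 0.155. LYAR was the only gene of the 45 called in both responses, which share their DMSO libraries.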

How the results depend on the processing

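No call of the 45 genes changed direction in any of 25 settings. Of 5825 pairs of a called gene and a setting, 5236 kept the call and 589 lost it. Every leave-out leaves a group with 1 library, whose spread is assumed to be that of the other groups.

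With 1 library left out at a time, the number of the 45 called against DMSO ran from 0 to 0 with Nutlin-3A, 8 to 29 with Entinostat and 9 to 36 with the combination in p53-/- cells, and from 0 to 6, 9 to 30 and 30 to 39 in p53+/+ cells. For the combination against Nutlin-3A it ran from 5 to 31 in p53-/- and 16 to 34 in p53+/+ cells, and against Entinostat from 0 to 0 and from 2 to 9. Between genotypes it ran from 2 to 3 with DMSO, 4 to 15 with Nutlin-3A, 2 to 3 with Entinostat and 9 to 23 with the combination. For differences in response it ran from 0 to 2 with Nutlin-3A, 0 to 0 with Entinostat and 0 to 6 with the combination, and for departures from additivity from 0 to 0.

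Quantile normalization gave 16 with Entinostat and 19 with the combination in p53-/- cells, 2 with Nutlin-3A and 17 with Entinostat in p53+/+ cells, and 5 combination responses. The count of combination responses was 1 with no filter on low values, 1 with median of ratios scaling, 1 without the intensity trend and 0 with only the compared groups fitted. That last setting gave 0 for the combination against Entinostat in p53+/+ cells and 7 between genotypes with the combination. The causes were not tested. Over all tested genes, combination responses were 475 higher and 245 lower, against 332 and 302 with median of ratios and 479 and 425 with quantile normalization. The combination against Entinostat in p53+/+ cells gave 643 higher and 1208 lower, against 873 and 992 with quantile normalization, and the combination against Nutlin-3A in p53-/- cells 1696 and 1216, against 1011 and 1092.

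With a replicate block the counts were 11 with Nutlin-3A, 10 lower and RRP12 higher, and 16 for the combination against Entinostat, 15 lower and RRP12 higher, both in p53+/+ cells. Against DMSO the block gave 38 calls with Entinostat in p53-/- and 37 in p53+/+ cells, and 39 and 41 with the combination. NPM1 was called higher with Entinostat in p53-/- cells. The share of the 45 that fell with Entinostat was 82.2% in each genotype, against 21.1% of all tested genes in p53-/- and 20.4% in p53+/+ cells. With the combination 86.7% fell in p53-/- and 91.1% in p53+/+ cells, against 22.5% and 33.4% of all tested genes. Between genotypes the counts were 24 with Nutlin-3A, 21 higher and 3 lower in p53-/- cells, and 28 with the combination, 25 higher and 3 lower. The 24 were 53.3% of the 45, near the 50.6% of all tested genes called, and the 28 were 62.2%, against 52.9%. The share lower was 6.67% of the 45 under each treatment, against 25.2% of all tested genes with Nutlin-3A and 24.2% with the combination. For responses they were 4 with Nutlin-3A and 9 with the combination, all higher in p53-/- cells. The shares of all tested genes called were larger as well. The 15 falls for the combination against Entinostat in p53+/+ cells were 33.3% of the 45, against 19.3% of all tested genes. The 10 falls with Nutlin-3A in p53+/+ cells were 22.2% of the 45, against 17.4% of all tested genes, and the called responses were 8.89% against 17.1% with Nutlin-3A and 20% against 23.8% with the combination. A prefix in the sample titles follows the replicate number without saying what it marks. Samples of a replicate number thus share that prefix as well, and the labels do not say whether either marks a shared culture or day. The replicate differences of 2 groups correlated across genes at r from 0.27 to 0.78 over 28 pairs of groups, which is a hint from the data and not from the design.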
